A study of Mus musculus with 11 samples.

Results

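The blood vessels of the brain are lined by endothelial cells that are joined by tight junctions and carry a dense set of transporters, and these features make up the blood-brain barrier. Expression of 10 genes known for these cells was followed across 4 mouse reporter lines. The genes were Flt1, Kdr and Tek, which encode receptors for vessel growth factors; Cdh5, Pecam1, Cldn5 and Emcn, which encode junction and surface proteins; and Slc2a1, Abcb1a and Slco1a4, which encode barrier transporters. They were taken by name, with earlier results of these data known, from 19938 genes that had a probe set with a single symbol. Each of the 10 genes had 1 probe set, so no choice between probe sets was made. All 10 passed the filter on low values, and 10 of 10 would also have passed it on the arrays of the 3 lines other than NesGFP alone, so none was kept only because it was high in NesGFP.

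The RNA came from cells obtained by fluorescence-activated sorting of the dorsal and ventral dentate gyrus, microdissected from adult mice at postnatal day 35, and it was amplified before hybridisation to 11 Affymetrix Mouse Gene 1.0 ST arrays. The dentate gyrus is the part of the hippocampus in which granule neurons go on being made. NesGFP mice (3 arrays) are Nestin GFP transgenic, Nestin being a filament protein typical of neural stem cells. In kiTbr2GFP mice (3 arrays) GFP is knocked into Eomes, the gene of the transcription factor Tbr2 of neuronal progenitors, and in tgTbr2GFP mice (3 arrays) it is on a bacterial artificial chromosome transgene of Eomes. PomcGFP mice (2 arrays) carry GFP as a transgene of Pro-opiomelanocortin-alpha, a hormone precursor gene. The labels name neither a further allele or treatment nor the Nestin regulatory fragment. They state that cells were sorted but not the gate, which is taken here to be the GFP of each line, and name no sort for or against vessel cells. The labels do not say that a line's arrays are separate animals, so the p-values speak only of array-to-array spread, possibly technical.

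As background, Flt1 and Kdr bind vascular endothelial growth factor, which drives the growth and upkeep of vessels, and Tek binds the angiopoietins, which settle vessels and their contact with pericytes. Cdh5 forms the adherens junctions of endothelium and Cldn5 seals its tight junctions. In brain vessels Slc2a1 carries glucose into the tissue, Abcb1a pumps drugs back to the blood, and Slco1a4 carries organic anions.

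The sequence around an annotated start of these genes was examined because ETS, forkhead and Sox factors are known for their part in endothelial transcription. RefSeq windows on GRCm38.p6, from 250 bases before to 50 bases after a transcript start, were held for 8 of the 10 genes; Cdh5 and Pecam1 are named only. On both strands, the ETS core AGGAAG was in 4 of 8 windows, against 35.4% of 32851 promoters of the same length, and the related core CGGAAG was in 0 of 8, against 16.9%. These cores differ at their first base, so a match of one is never a match of the other. The forkhead core TAAACA was in 2 of 8 (Abcb1a and Slco1a4), against 13.4%, and the Sox core ACAATG in 1 of 8 (Slco1a4), against 12.6%. The windows with AGGAAG were those of Flt1, Emcn, Abcb1a and Slco1a4. Of these, 1 from each group of genes is printed, with capitals marking AGGAAG or its reverse complement. The start used is that of the gene in the same annotation for 3 of 8 windows (Abcb1a, Cldn5 and Slc2a1). In the other 5 it lies inside the gene, by 16 bases for Emcn, 64 for Slco1a4, 203 for Tek, 427 for Flt1 and 617 for Kdr, and the windows of Flt1 and Kdr lie wholly inside their genes. A match describes letters in this window and is not a measured binding site.
Flt1, chr5:147725962-147726261, minus strand: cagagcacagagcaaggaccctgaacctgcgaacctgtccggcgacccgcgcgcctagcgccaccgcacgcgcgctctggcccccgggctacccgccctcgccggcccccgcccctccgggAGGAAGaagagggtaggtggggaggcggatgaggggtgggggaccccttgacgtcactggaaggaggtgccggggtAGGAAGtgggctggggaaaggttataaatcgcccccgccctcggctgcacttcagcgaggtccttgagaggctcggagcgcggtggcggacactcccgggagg
Emcn, chr3:137340828-137341127, plus strand: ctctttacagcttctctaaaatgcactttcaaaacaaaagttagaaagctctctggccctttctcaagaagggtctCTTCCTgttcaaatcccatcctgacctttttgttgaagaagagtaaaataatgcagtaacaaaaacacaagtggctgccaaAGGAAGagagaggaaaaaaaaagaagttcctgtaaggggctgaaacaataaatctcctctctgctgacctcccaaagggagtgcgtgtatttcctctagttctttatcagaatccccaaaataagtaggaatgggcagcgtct
Slco1a4, chr6:141856171-141856470, minus strand: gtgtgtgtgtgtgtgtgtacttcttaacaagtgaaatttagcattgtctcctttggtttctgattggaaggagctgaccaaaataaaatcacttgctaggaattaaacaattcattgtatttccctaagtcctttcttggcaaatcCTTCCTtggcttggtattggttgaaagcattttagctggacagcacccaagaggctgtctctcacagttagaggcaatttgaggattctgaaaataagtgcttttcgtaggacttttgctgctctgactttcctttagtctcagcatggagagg

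Across the whole set of arrays, medians of the log2 values lay between 7.0 and 7.15, and 25th percentiles between 5.90 and 6.2. Arrays of a line correlated at r = 0.963 to 0.991 over probe sets, the 3 lines other than NesGFP correlated with each other at 0.964 to 0.984, and NesGFP with the others at 0.882 to 0.912. NesGFP therefore stood apart over all genes, and 20.1% of the 16527 genes tested were lower in all 3 other lines by the test used here, limma with a Benjamini-Hochberg adjusted p under 0.05. The reporters' own genes each had their highest mean in the lines named for them. Nes was at 7.35 ± 0.39 (SD, n = 3) in NesGFP with means of 5.94 to 6.15 elsewhere. This too was a low level, with 1 NesGFP array (6.91) at or under its array median. For Nes, 1 kiTbr2GFP, 3 tgTbr2GFP and 2 PomcGFP arrays were at or under the 25th percentile. Eomes was highest in the Tbr2 lines (9.98 and 10.18), with means of 8.80 in NesGFP and 7.52 in PomcGFP. Pomc was highest in PomcGFP (7.25 ± 0.04, SD, n = 2), but narrowly, with means of 6.77 to 6.95 elsewhere. All these Pomc levels lay near the array medians. The number of arrays limits the precision, and log2 levels of different probe sets are not compared with each other.

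All 10 genes were high in NesGFP and far lower in the other lines. Every array of kiTbr2GFP, tgTbr2GFP and PomcGFP lay below every NesGFP array for 10 of 10 genes, a pattern held by 23.3% of all genes. All 10 were lower past the test in kiTbr2GFP (27% of all genes), in tgTbr2GFP (25.8%) and in PomcGFP (24%). All 10 also passed the F test over the 4 lines (43.4% of all genes). The size of the differences was far from that of most genes: 10, 10 and 9 of them were among the 100 most negative differences of the comparison, which hold 0.605% of genes. The median difference from NesGFP was -3.44 in kiTbr2GFP, -3.24 in tgTbr2GFP and -2.91 in PomcGFP, against -0.01, -0.03 and 0.00 over all genes. The 3 comparisons share the NesGFP arrays and are not independent of each other. Because the 10 genes were chosen with earlier results of these data known, these counts and ranks are descriptions and not a test.

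**Figure D1:**
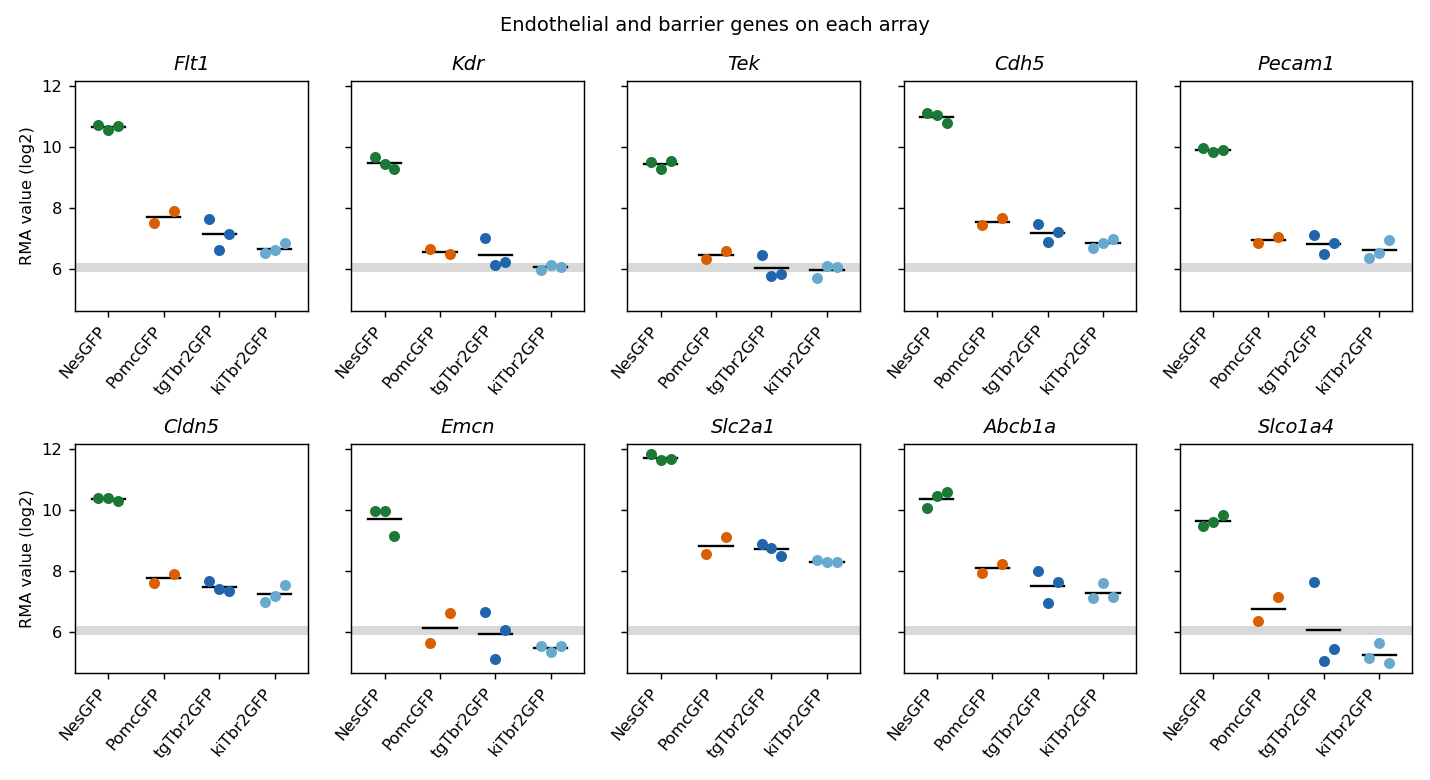
Log2 RMA value of each of the 10 genes (one panel per gene) on each array, arranged by line, with points for arrays, a bar for the line mean and a grey band over the range of the arrays' 25th percentiles. The NesGFP points lie above all others in every panel, and the first tgTbr2GFP array is the highest of its line in 10 of 10 genes.

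Flt1, the decoy and signalling receptor for vascular endothelial growth factor, was at log2 values of 10.72, 10.55 and 10.69 on the NesGFP arrays. It was at 6.53, 6.62 and 6.85 in kiTbr2GFP, at 7.67, 6.64 and 7.16 in tgTbr2GFP, and at 7.51 and 7.90 in PomcGFP. The NesGFP arrays were far above the rest, the PomcGFP arrays were above all those of kiTbr2GFP, and the first tgTbr2GFP array reached the PomcGFP range. Against NesGFP the difference was -3.99 ± 0.22 (SE; adjusted p = 1.90e-07) in kiTbr2GFP, -3.50 ± 0.22 (adjusted p = 6.09e-07) in tgTbr2GFP and -2.95 ± 0.24 (adjusted p = 4.84e-06) in PomcGFP, which are 15.9-fold, 11.3-fold and 7.73-fold lower levels.

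Kdr, the main signalling receptor of the same factor, was at 9.68, 9.46 and 9.29 in NesGFP. In kiTbr2GFP it was at 5.98, 6.16 and 6.09, in tgTbr2GFP at 7.04, 6.16 and 6.23, and in PomcGFP at 6.65 and 6.51. The first tgTbr2GFP array was the only one of the 8 above 7, and 2 kiTbr2GFP arrays lay at or under the 25th percentile of their array. No detection level was determined for these arrays, so whether values that low lie above background is not known. Its level was 10.6-fold, 7.99-fold and 7.42-fold lower in kiTbr2GFP, tgTbr2GFP and PomcGFP (differences of -3.40, -3.0 and -2.89; adjusted p = 3.37e-07, 1.08e-06 and 3.96e-06). Tek, the angiopoietin receptor, was at 9.50, 9.28 and 9.55 in NesGFP, against 5.73, 6.11 and 6.09 in kiTbr2GFP, 6.48, 5.78 and 5.86 in tgTbr2GFP, and 6.35 and 6.60 in PomcGFP. All 3 kiTbr2GFP arrays and 2 of the tgTbr2GFP arrays were at or under the 25th percentile. The folds of Tek, 11, 10.6 and 7.82, therefore compare a clear level with one low on the array (differences of -3.46, -3.40 and -2.97; adjusted p = 1.71e-07, 2.69e-07 and 1.91e-06).

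Cdh5, the cadherin of endothelial adherens junctions, was at 11.12, 11.05 and 10.80 in NesGFP. It was at 6.69, 6.87 and 7.01 in kiTbr2GFP, 7.48, 6.89 and 7.24 in tgTbr2GFP, and 7.46 and 7.67 in PomcGFP. No array of the 3 lines came within 3 log2 units of NesGFP, and the tgTbr2GFP arrays overlapped both neighbours. Cdh5 had the smallest adjusted p of the 10 in each comparison: differences of -4.14 ± 0.16, -3.79 ± 0.16 and -3.43 ± 0.18 (SE; adjusted p = 5.46e-08, 1.21e-07 and 5.19e-07), or 17.6-fold, 13.8-fold and 10.8-fold lower levels.

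Pecam1, an adhesion molecule at endothelial cell contacts, was at 9.96, 9.84 and 9.90 in NesGFP, 6.37, 6.53 and 6.98 in kiTbr2GFP, 7.14, 6.49 and 6.86 in tgTbr2GFP, and 6.88 and 7.07 in PomcGFP. Below NesGFP the 3 lines overlapped throughout, and levels were 9.68-fold, 8.39-fold and 7.60-fold lower (adjusted p = 2.08e-07, 4.60e-07 and 1.91e-06). Cldn5, the tight junction protein, was at 10.41, 10.40 and 10.30 in NesGFP, 7.0, 7.18 and 7.54 in kiTbr2GFP, 7.69, 7.40 and 7.36 in tgTbr2GFP, and 7.60 and 7.92 in PomcGFP. Its probe set stayed above the 25th percentile on all arrays, and its level was 8.75-fold, 7.38-fold and 6.10-fold lower (adjusted p = 1.09e-07, 2.34e-07 and 1.40e-06).

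Emcn, the sialomucin endomucin of capillary and venous endothelium, was the most variable of the junction and surface genes. It was at 9.97, 9.96 and 9.14 in NesGFP, 5.54, 5.36 and 5.53 in kiTbr2GFP, 6.66, 5.13 and 6.06 in tgTbr2GFP, and 5.65 and 6.61 in PomcGFP. The third NesGFP array was the low one of its line, and 3, 2 and 1 arrays of the other lines lay at or under the 25th percentile. The differences were -4.21 ± 0.37, -3.74 ± 0.37 and -3.56 ± 0.41 (SE; adjusted p = 3.92e-06, 1.15e-05 and 4.90e-05), or 18.5-fold, 13.3-fold and 11.8-fold lower levels.

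Slc2a1, the glucose transporter of the barrier, which other brain cells also express, was at 11.83, 11.65 and 11.67 in NesGFP. It was at 8.35, 8.29 and 8.28 in kiTbr2GFP, 8.90, 8.77 and 8.50 in tgTbr2GFP, and 8.55 and 9.10 in PomcGFP. Unlike the receptors, its probe set was above the array median on every array of every line. Its level was 10.6-fold, 7.95-fold and 7.40-fold lower than in NesGFP (differences of -3.41, -2.99 and -2.89; adjusted p = 8.28e-08, 1.83e-07 and 7.98e-07). Abcb1a, the efflux pump P-glycoprotein, was at 10.06, 10.45 and 10.58 in NesGFP, 7.12, 7.61 and 7.15 in kiTbr2GFP, 7.99, 6.94 and 7.63 in tgTbr2GFP, and 7.92 and 8.25 in PomcGFP. Its difference in PomcGFP, -2.27 ± 0.28 (SE; adjusted p = 7.48e-05; 4.84-fold lower), was the smallest of the 10 and stood at place 174 from the most negative of all genes. In kiTbr2GFP and tgTbr2GFP Abcb1a was 8.38-fold and 7.15-fold lower (adjusted p = 2.34e-06 and 5.29e-06).

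Slco1a4, the organic anion transporter of brain endothelium, was at 9.47, 9.62 and 9.84 in NesGFP and at 5.14, 5.66 and 5.0 in kiTbr2GFP. Its tgTbr2GFP arrays were at 7.63, 5.07 and 5.46, and those of PomcGFP at 6.35 and 7.16. The first tgTbr2GFP array stood more than 2 log2 units above the others of its line and above both PomcGFP arrays. The differences were -4.38 ± 0.52 (SE; adjusted p = 4.12e-05), -3.59 ± 0.52 (adjusted p = 0.000205) and -2.89 ± 0.58 (adjusted p = 0.00222), with folds of 20.8, 12 and 7.41. All 3 kiTbr2GFP arrays and 2 tgTbr2GFP arrays of Slco1a4 were at or under the 25th percentile. The folds in these lines therefore compare a clear level with one low on the array. Without the first tgTbr2GFP array the tgTbr2GFP difference from NesGFP was -4.38.

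**Figure D2:**
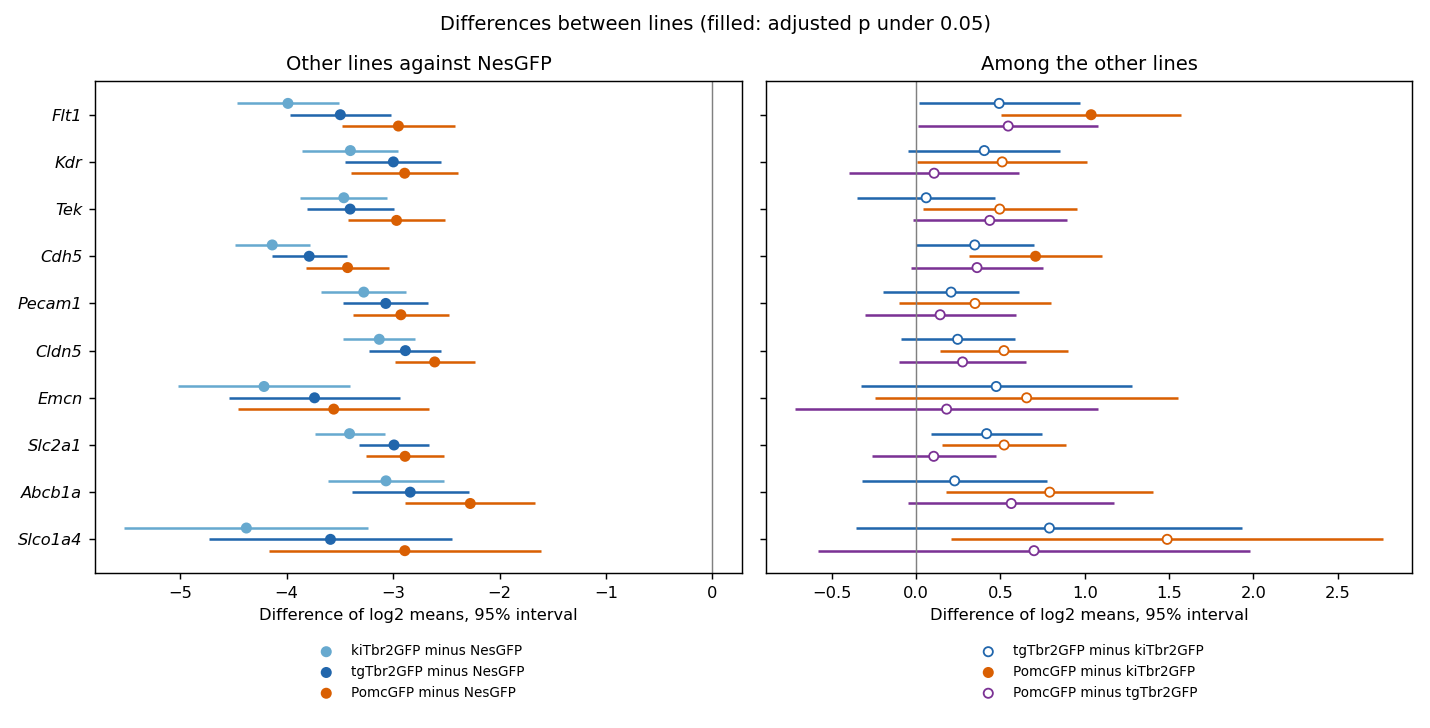
Difference from NesGFP in log2 units (limma estimate with its 95% interval) for each of the 10 genes on the left, and differences among the other 3 lines on the right, with filled points for an adjusted p under 0.05. The estimates on the left lie between -4.38 and -2.27, and those on the right between 0.06 and 1.49 with only Flt1 and Cdh5 filled, for PomcGFP minus kiTbr2GFP.

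Below NesGFP the line means ran in 1 order for 10 of 10 genes, PomcGFP above tgTbr2GFP above kiTbr2GFP, against 10.3% of all genes with the same order of the 4 lines. That order held with any 1 array left out for 4 of the 10 (Flt1, Cdh5, Cldn5 and Slco1a4). It turned for Tek and Abcb1a without the first tgTbr2GFP array, for Kdr, Pecam1 and Emcn without the second, for Kdr and Slc2a1 without the last, for Emcn and Slc2a1 without the second PomcGFP array, and for Tek without the first kiTbr2GFP array. Most neighbours in that order did not differ beyond their spread. PomcGFP against tgTbr2GFP gave 0 of 10 genes past the test (1.37% of all genes in either direction), with overlapping arrays for all 10 (15.9% of all genes lay higher without overlap), a median difference of 0.32 and a range of 0.10 to 0.70. tgTbr2GFP against kiTbr2GFP gave 0 of 10 past the test (1.12% of all genes), with a median of 0.38 and a range of 0.06 to 0.79. Of the tgTbr2GFP against kiTbr2GFP differences, that of Slc2a1 alone came from arrays that did not overlap (0.42 ± 0.15, SE; 95% interval 0.09 to 0.75; adjusted p = 0.322), as in 9.38% of all genes. These misses do not show equal levels: the 95% interval of the Slco1a4 difference between tgTbr2GFP and kiTbr2GFP ran from -0.36 to 1.94.

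The outer pair of that order, PomcGFP and kiTbr2GFP, differed past the test in 2 of 10 genes, with 2.9% of all genes higher past the test. Flt1 was 2.05-fold higher in PomcGFP (1.04 ± 0.24, SE; 95% interval 0.50 to 1.57; adjusted p = 0.0322) and Cdh5 1.63-fold higher (0.71 ± 0.18, SE; 95% interval 0.32 to 1.10; adjusted p = 0.0453). For 9 of 10 genes both PomcGFP arrays lay above all kiTbr2GFP arrays, against 18.1% of all genes, and Pecam1 was the one that overlapped. The differences ranged from 0.35 to 1.49 with a median of 0.59, and it was 1.49 ± 0.58 (SE; adjusted p = 0.237) for Slco1a4, whose kiTbr2GFP level was at or under the 25th percentile on all 3 arrays. The calls of Flt1 and Cdh5 ended when any 1 of the 5 kiTbr2GFP and PomcGFP arrays was left out, with adjusted p from 0.056 to 0.282 for Flt1 and from 0.0681 to 0.324 for Cdh5.

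Mean levels of markers of some other cells were also higher in PomcGFP than in kiTbr2GFP. The 10 genes averaged 7.09 and 7.48 on the PomcGFP arrays and 6.44 to 6.65 in kiTbr2GFP, while 10 oligodendrocyte genes averaged 8.87 and 8.86 against 7.16 to 7.90. From the first to the second PomcGFP array the mean of the 10 genes rose, and so did the mural cell mean (6.89 and 7.22). The oligodendrocyte mean and the microglial mean (7.30 and 7.28) stayed level, and the oligodendrocyte precursor mean was 8.12 and 8.02. Of those 10 oligodendrocyte genes 2 were higher past the test in PomcGFP than in kiTbr2GFP, among them Mbp, the myelin basic protein gene (1.87 ± 0.29, SE; adjusted p = 0.00274), and 4 of 9 microglial genes were too, such as the protease gene Ctss (1.98 ± 0.39, SE; adjusted p = 0.0135). The call of Ctss ended without the first kiTbr2GFP array or either PomcGFP array (adjusted p = 0.0577 to 0.148). Astrocyte genes averaged 8.74 and 8.85 in PomcGFP against 8.09 to 8.33 in kiTbr2GFP, with 2 of 12 higher past the test. Over all genes 2.9% were higher past the test in this comparison. The first tgTbr2GFP array, the highest of its line in 10 of 10 vessel genes (26% of all genes), was also the highest of its line for the oligodendrocyte mean (9.09, against 7.22 and 7.55) and the astrocyte mean (9.15, against 8.55 and 8.84), whereas its mural cell mean of 6.93 lay within the 6.79 to 6.93 of its line. The part of these other cells in the vessel gene values was not tested.

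Without the first tgTbr2GFP array, the difference between tgTbr2GFP and kiTbr2GFP was -0.16 for Tek, -0.01 for Abcb1a and 0.00011 for Slco1a4, and Slco1a4 became higher in PomcGFP than in tgTbr2GFP past the test (1.49; adjusted p = 0.0339). In RNA from sorted bulk samples such as these, fewer cells of a type and less RNA per cell cannot be told apart.

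Lists of other vessel genes followed the same division between NesGFP and the rest, with exceptions. Counts were taken over 97 further genes tested in 5 lists, with the list of vessel growth ligands left out. The Wnt list among these 5 still holds ligand genes (Wnt7a, Wnt7b and Ndp). Of the 97 genes, 79 were lower and 5 higher past the test in kiTbr2GFP. In tgTbr2GFP 78 were lower and 4 higher, and in PomcGFP 72 were lower and 3 higher. Over all genes 27%, 25.8% and 24% were lower and 18.2%, 15.8% and 15.9% higher past the test in these lines. The medians of the 97 genes, -1.26, -1.23 and -1.14, were nearer to 0 than those of the 10 genes described above. In PomcGFP against kiTbr2GFP, 3 of the 97 were higher and 2 lower past the test, with a median of 0.19. Over all 16527 genes 2.9% were higher past the test in that comparison, and 328 genes were lower. Some of these genes are also made by neurons or glia, and the source of their RNA cannot be told apart here.

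Of 17 receptors and signalling genes of vessel growth, 12, 13 and 11 were lower in kiTbr2GFP, tgTbr2GFP and PomcGFP. Adgrf5, an adhesion receptor of capillary endothelium, differed from NesGFP by -3.75, -3.47 and -2.85, and Ramp2, the partner of the adrenomedullin receptor, by -2.91, -2.90 and -2.79. S1pr1, the sphingosine phosphate receptor, was higher past the test in tgTbr2GFP than in kiTbr2GFP (1.04 ± 0.20, SE, adjusted p = 0.0343). Against NesGFP it was lower by -2.72, -1.68 and -1.94. The neuropilins went the other way: Nrp1, a co-receptor of growth factors and semaphorins that neurons also use, was higher by 0.80, 1.00 and 1.14 (adjusted p = 0.000321, 7.36e-05 and 8.00e-05), and Nrp2 by 0.46, 0.42 and 0.90. Among the ligands, 5, 5 and 4 of 10 were lower and 1 was higher in each line. Over all genes the shares were 27%, 25.8% and 24% lower and 18.2%, 15.8% and 15.9% higher. Vegfc was lower by -1.01, -1.13 and -0.99 and Vegfa by -0.89, -0.66 and -0.67; the PomcGFP call of Vegfa ended without either PomcGFP array (adjusted p = 0.0501 and 0.0518). Angpt1, which encodes the ligand that activates Tek, was the ligand that was higher, at 6.49 ± 0.05 (SD, n = 3) in NesGFP and at means of 8.48, 8.87 and 8.03 in kiTbr2GFP, tgTbr2GFP and PomcGFP (differences of 1.99, 2.39 and 1.55; adjusted p = 6.10e-05, 1.84e-05 and 0.00108). So the receptor gene Tek and the ligand gene Angpt1 differed between NesGFP and each other line in opposite directions.

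Of 23 further junction and surface genes tested of 27 listed, 19, 19 and 18 were lower. Itm2a, a membrane protein gene known from barrier endothelium, had the largest difference in kiTbr2GFP among them (-4.99 ± 0.31, SE; adjusted p = 3.78e-07), with -4.21 in tgTbr2GFP and -3.50 in PomcGFP. The surface sialomucin gene Cd34 differed by -3.63, -3.52 and -3.25. Sele, an adhesion gene of inflamed endothelium, was the exception in kiTbr2GFP, where it was higher by 0.40 ± 0.13 (SE; adjusted p = 0.0249). That call of Sele ended without the third kiTbr2GFP array (adjusted p = 0.105) or without the first or second NesGFP array (0.0600 and 0.0865).

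The barrier list had the largest share of lower genes among these lists: of 21 transport and enzyme genes tested of 23 listed, 20, 19 and 18 were lower, with medians of -2.50, -2.21 and -2.17. Mfsd2a, the lipid transporter that restrains vesicle traffic through brain endothelium, differed by -3.81, -3.16 and -3.12. Car4, a carbonic anhydrase on capillary surfaces, differed by -3.65, -3.51 and -2.92, and Pltp, the phospholipid transfer protein gene, by -3.70, -3.14 and -3.10. Slco1c1, the thyroxine transporter of barrier endothelium and astrocytes, was lower by -3.81, -2.19 and -2.66, and it was also higher past the test in tgTbr2GFP than in kiTbr2GFP (1.63 ± 0.25, SE; adjusted p = 0.0112), a call of Slco1c1 that ended without the first or the third kiTbr2GFP array or the third tgTbr2GFP array (adjusted p = 0.0513 to 0.0615). The insulin receptor gene Insr was the 1 member of the list that was higher in each line, by 0.50, 0.50 and 0.50 (adjusted p = 0.0203, 0.0230 and 0.0366). Without the first NesGFP array the Insr differences were 0.31, 0.31 and 0.32 and did not pass, and neither did the mean of its probe sets, with 0.23, 0.24 and 0.26 (adjusted p = 0.149, 0.146 and 0.158).

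Of 19 endothelial transcription factors tested of 20 listed, 14, 15 and 14 were lower. Epas1, the hypoxia-regulated factor prominent in vessels, differed by -3.51, -2.86 and -2.65, and Lmo2, a cofactor of blood and vessel formation, by -1.73, -1.32 and -1.67. Nr2f2, a factor of venous endothelium that some neurons also express, was higher in kiTbr2GFP (0.82 ± 0.18, SE; adjusted p = 0.00301) and tgTbr2GFP (1.17 ± 0.18, SE; adjusted p = 0.000299), with a PomcGFP difference of -0.27 (adjusted p = 0.319). Of 17 genes of the Wnt pathway that induces barrier properties, tested of 18 listed, 14, 12 and 11 were lower and 0 higher in any line. Nkd1, a target and feedback inhibitor of that pathway, differed by -2.80, -2.59 and -2.54, Apcdd1, another inhibitor, by -1.38, -1.69 and -1.81, and the receptor gene Fzd4 by -1.83, -1.53 and -1.78.

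**Figure D3:**
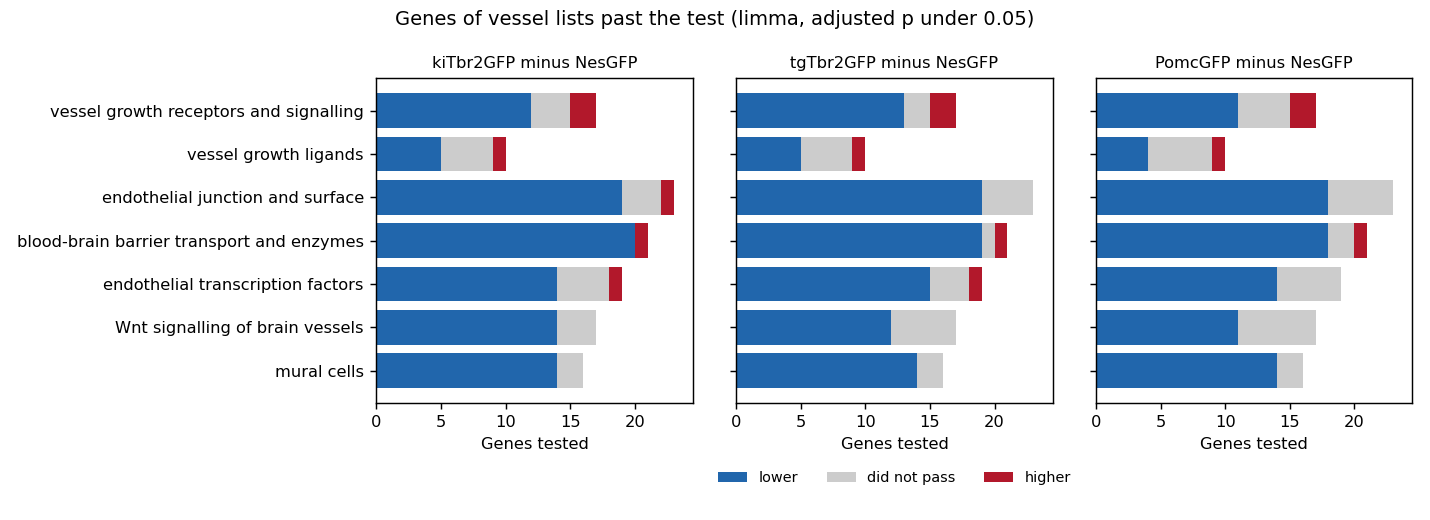
Number of genes of each vessel list that were lower (blue), higher (red) or did not pass the test (grey) against NesGFP, one panel per line, with the number of genes tested as the length of the bar. Lower genes make up most of every bar except that of the ligands, of which 5, 5 and 4 of 10 were lower.

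Mural cells, the pericytes and smooth muscle cells that wrap vessels, are the closest neighbours of endothelium. Of 16 mural genes, 14 were lower past the test in each of the 3 lines, with medians of -2.14, -2.05 and -2.01. Myl9, a smooth muscle myosin light chain gene, differed from NesGFP by -4.25, -4.32 and -4.34, and the smooth muscle actin gene Acta2 by -3.90, -3.75 and -3.49. Vtn, a pericyte product, differed by -4.18, -3.85 and -2.99. The mural mean was 8.93 to 9.19 in NesGFP and between 6.71 and 7.22 on all other arrays. Of 8 fibroblast genes tested, 5 were lower in each line, among them the matrix gene Dcn (-2.07, -2.21 and -1.89). Red blood cells could be judged from 2 tested genes only, with 0 past the test in any of the 3 comparisons.

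NesGFP was also higher for glial genes, and these are not vessel cells. All 12 astrocyte genes were lower in kiTbr2GFP and tgTbr2GFP and 11 of 12 in PomcGFP, with Gfap, the astrocyte filament gene, at differences of -2.73, -2.28 and -2.50. Of 10 oligodendrocyte genes, 10, 10 and 6 were lower, and of 8 genes of their precursors 8 were lower in each line. Microglial genes did not share this direction: of 9 tested, 1 was lower and 1 higher in kiTbr2GFP and in tgTbr2GFP, and 0 were lower and 5 higher in PomcGFP. Over all genes, 27%, 25.8% and 24% were lower and 18.2%, 15.8% and 15.9% higher past the test in kiTbr2GFP, tgTbr2GFP and PomcGFP. Of 10 genes of young neurons, 6, 6 and 5 were higher and 0 were lower, such as Dcx, a microtubule protein gene of migrating neurons (2.51, 2.19 and 2.01). Vessel, mural, astrocyte and oligodendrocyte genes were thus higher together on the NesGFP arrays, and the part of any one cell type in the values of another was not tested.

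**Figure D4:**
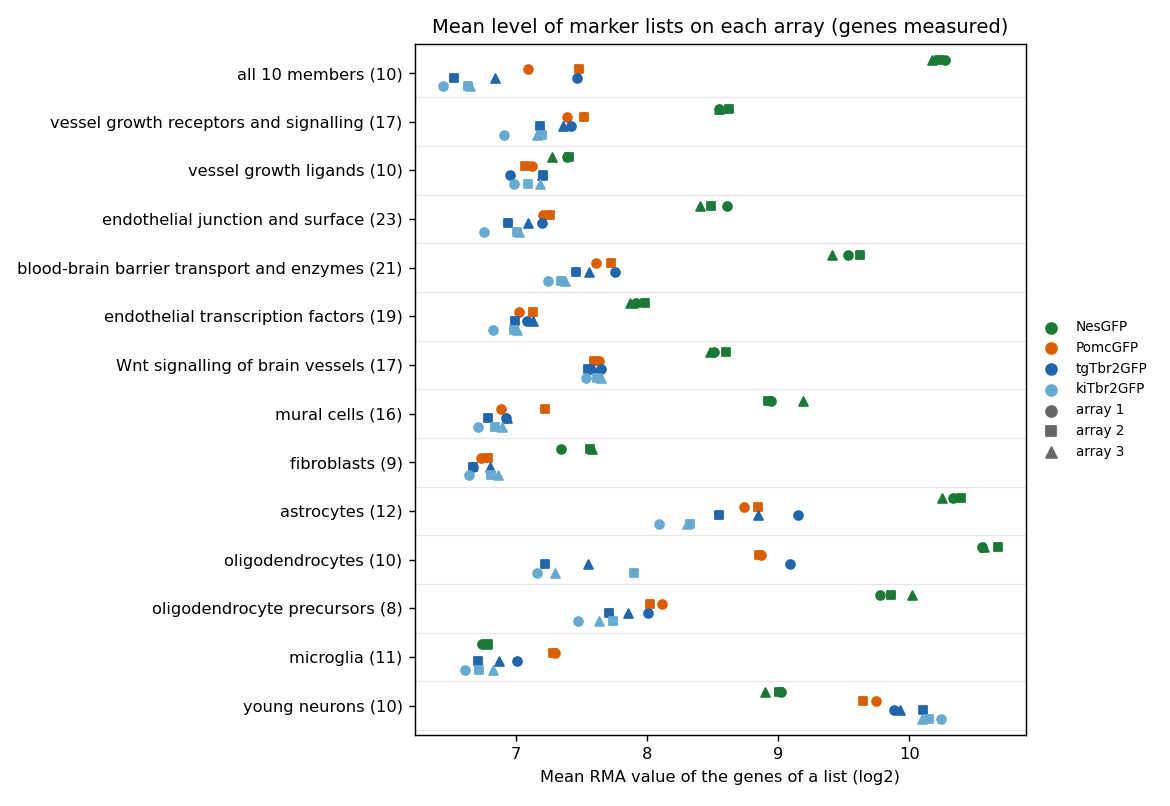
Mean log2 value of each gene list on each of the 11 arrays, with colours for lines and marker shapes for replicate numbers. The mean of the 10 vessel genes is 10.17 to 10.27 in NesGFP, 7.09 to 7.48 in PomcGFP, 6.53 to 7.47 in tgTbr2GFP and 6.44 to 6.65 in kiTbr2GFP, and the microglial mean does not separate NesGFP from the rest.

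The genes whose values followed the mean of the 10 vessel genes most closely over the 11 arrays were Ptgds (Pearson r = 0.995), Car4 (0.994), Sparc (0.994), Fxyd5 (0.994), Adgrf5 (0.993), Cldn10 (0.993), Epas1 (0.993), Ppp1r14a (0.993), Plaat3 (0.993) and Csrp1 (0.992). The points share the division between NesGFP and the other 3 lines, which a large part of all genes also follows, so these values describe that division. Over the 8 arrays without NesGFP the closest were Cox6c (0.990), Gpr171 (0.976), Gpc5 (0.972), Rasgrp3 (0.971) and Chrna7 (0.971), with no gene in both sets and none of the 5 in an endothelial list. These 5 were picked as the highest of all genes over only 8 points. The 8 arrays also share the differences among the 3 lines and the high first tgTbr2GFP array. Such r values do not show that these genes belong to vessel cells. Over the same 8 arrays each vessel gene followed the mean of the other 9 at r = 0.739 (Slc2a1) to 0.966 (Flt1).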

How the data were processed

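RNA of sorted cells was measured on 11 arrays in 4 lines. The deposited values are log2 values, 1 per probe set and array, made by the authors with RMA (oligo, no version named), as the submitters' processing notes and the range of the values show. The genome build is not given in the sources used here.

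Of 28858 probe sets 21789 had a single symbol, 1621 several and 5448 none in GEO's platform annotation; 21698 matched RefSeq by Entrez number. A probe set was kept above its array's 25th percentile on at least 2 arrays (18097), and the highest mean stood for a gene (16527 genes). A cell-means model of 4 lines was fitted to 11 arrays with limma 3.58.1 in R 4.3.3 (7 residual, 4.22 prior degrees of freedom), two-sided, with Benjamini-Hochberg adjustment over all genes and a threshold of 0.05. Differences are on the log2 scale and folds are taken from them. The fits were checked on simulated data.

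The members and gene lists were chosen with earlier results of these data known, so counts over them are descriptions. Named list genes are, per list and past the test, the 2 most negative and 2 most positive in PomcGFP or in the mean of the 3 other lines against NesGFP, and the 2 largest without NesGFP; the likeness genes have the highest r with the members' mean, 10 over 11 arrays and 5 over 8. Alternatives were 2 filters, the mean of probe sets, cyclic loess, median centring, an intensity trend, array weights, the replicate block, the compared groups alone, and leaving out each array. Promoter windows are RefSeq's, GRCm38.p6. Figures used Python 3.11.15, pandas 2.3.3, numpy 2.4.6 and matplotlib 3.10.9.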

Additional observations from a re-analysis of the deposited data

How the results depend on the processing

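All 10 genes stayed lower past the test against NesGFP in each of the 3 lines under every alternative run (15, 15 and 14 of them), and past the F test over the 4 lines. The comparisons without NesGFP moved. For PomcGFP against kiTbr2GFP, the count of 2 genes became 1 with no filter, 1 with each array centred on its median, 1 with an intensity trend, 4 with array weights, 5 with the compared groups alone, and 0 to 1 with an array left out; with 1 PomcGFP array left, that array is assumed to vary like the others. With the replicate number as a block it was 0 (Flt1 adjusted p = 0.0661, Cdh5 0.104), and the block changed no other count of the 10 genes; of 15 same-number pairs, 4 deviated together at r over 0.1 (range -0.11 to 0.26), among them all 3 pairs of number 3, so the numbers were not taken to pair samples. Array weights gave 1 gene in tgTbr2GFP against kiTbr2GFP (Slc2a1, 0.45; adjusted p = 0.0236) and 1 in PomcGFP against tgTbr2GFP (Flt1, 0.82; adjusted p = 0.0458), where leaving out an array gave 0 to 1. Over all genes, the count for tgTbr2GFP against kiTbr2GFP was 185, with 1393 under array weights and 68 to 175 with an array left out. For PomcGFP against kiTbr2GFP it was 807, with 2065 under array weights, 1246 in the compared groups alone and 364 to 555 with an array left out. For PomcGFP against tgTbr2GFP it was 226, with 1063, 143 and 38 to 275. The cause of these moves was not tested. Probe sets near the 25th percentile (Kdr, Tek, Emcn and Slco1a4) limit how low a level can be read.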
